A study of Mus musculus with 4 samples.

Results

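The SR splicing factors and the Tra2 proteins are described here through 10 genes, *Srsf1*, *Srsf2*, *Srsf3*, *Srsf5*, *Srsf6*, *Srsf7*, *Srsf10*, *Srsf11*, *Tra2a* and *Tra2b*, out of the 56748 gene IDs in the count tables. They were chosen by name from the family, of which the tables hold other genes as well, and all 10 had enough reads to be tested among 8670 genes. The cells were C2C12, an immortalised line of mouse myoblasts (genotype WT), grown as myoblasts. The scrambled group (n = 2) carried a control shRNA and the knockdown group (n = 2) a cocktail of 3 shRNAs against *Hnrnpl*, which encodes an RNA-binding splicing regulator. Both groups had been transfected with plasmids that also express eGFP, and eGFP-positive clones were selected with puromycin. The replicates of a group were passages of 1 selected stable line, so the knockdown and the choice of the line cannot be told apart, and p-values measure the spread between passages. Batch 1 held scrambled 1 and knockdown 1, and batch 2 held scrambled 2 and knockdown 2. Total RNA was sequenced directly on nanopores, from the poly(A) tail, and the reads were counted per gene, so that 1 value per gene covers all of its transcripts.

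SR proteins have RNA recognition motifs that bind exonic sequences and a tail rich in arginine and serine that recruits the spliceosome, and in general they favour the use of the exon they bind. hnRNP proteins bind the same transcripts and often act against them. hnRNP L binds CA repeats and CA-rich sequence. The Tra2 proteins are SR-like proteins that bind GAA-rich exonic sequence. Most genes of the family hold a poison exon, a stretch whose inclusion brings a premature stop codon, so that the transcript is removed by nonsense-mediated decay. Many SR proteins promote inclusion of the poison exon in their own transcript and so limit their own level.

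The GENCODE vM39 annotation lists 401 transcripts for the 10 genes, and 200 of them are marked as targets of nonsense-mediated decay. Each of the 10 genes has at least 3 such transcripts. In 7 genes the stop codon of a decay transcript lies in an internal exon that shares no base with the canonical exons. Stops in retained introns, in longer forms of canonical exons or in end exons were left aside. For these 7 genes, the stop of this kind found in the most decay transcripts is shown with the coding bases before it. The 30 bases run 5′ to 3′ on the strand of the gene, with the stop codon in capitals. They show where such a transcript stops being read. In *Srsf6*, 2 such stops were found in 1 decay transcript each, and the one in the longer exon is shown. In *Srsf7* the first bases come from the exon before, and 28 of the 30 bases lie in the exon itself.
Srsf3: accatcatgtctcttctcaccaccctcTGA
Srsf5: atgacgaggagtgcctgtgggttatccTAA
Srsf6: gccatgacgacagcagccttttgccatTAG
Srsf7: aggtttcttcgtttgagtcagtcgcctTGA
Srsf11: aaagcagcagtaaaaaaaaaatactctTGA
Tra2a: aaaaaattgaacagaagattggtcagaTAG
Tra2b: aatgagtatttgaagctcaggaataagTGA

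On GRCm39, the exon with the stop is chr17:29258428-29258883 (456 bases, plus strand) in *Srsf3*, where 12 of 21 decay transcripts use this stop. In *Tra2b* it is chr16:22077736-22078011 (276 bases, minus strand), and 17 of 22 decay transcripts use the stop. *Srsf7* has chr17:80512404-80512510 (107 bases, minus strand), with the stop in 17 of 35 decay transcripts. *Srsf5* has chr12:80994903-80995240 (338 bases, plus strand), with the stop in 15 of 55. The others are chr2:162774735-162775002 (268 bases, plus strand) in *Srsf6*, with the stop in 1 of 5, chr3:157730335-157730398 (64 bases, minus strand) in *Srsf11*, with the stop in 4 of 16, and chr6:49229731-49230042 (312 bases, minus strand) in *Tra2a*, with the stop in 5 of 8. In 4 of the 7 genes the stop lies in exons of several forms, of which 1 is given here: the form given is in 13 of the 17 decay transcripts with the stop in *Tra2b* (4 forms), 9 of 17 in *Srsf7* (2 forms), 6 of 15 in *Srsf5* (4 forms) and 2 of 5 in *Tra2a* (3 forms, of which the one of 301 bases is also in 2). No internal exon of this kind was found in the decay transcripts of *Srsf1*, *Srsf2* and *Srsf10*, whose stops may lie in other sequence that was left aside. The gene counts do not separate transcripts with and without these exons, so their inclusion was not measured here.

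Reads assigned to genes numbered 1387523 in scrambled 1, 1676911 in scrambled 2, 1374637 in knockdown 1 and 1229424 in knockdown 2. A gene without a read may still have a level of up to 1.79 to 2.44 CPM (reads scaled to the library total), at 3 reads per library, a limit that covers counting error only. *Hnrnpl*, the targeted gene, had 375 and 552 normalized counts in the scrambled and 241 and 302 in the knockdown libraries, so that the groups did not overlap. Its log2 fold change was -0.78 (SE 0.18, adjusted p = 0.0112, edgeR quasi-likelihood test with Benjamini-Hochberg adjustment). Without scrambled 2 it was -0.48 (adjusted p = 0.194) and without knockdown 1 it was -0.62 (adjusted p = 0.15). Of 8 myoblast markers, all had reads, but *Myod1* had 1 read in scrambled 2 and 0 in the other libraries. Their summed level without *Vim* was 523 and 602 CPM in the scrambled and 388 and 332 CPM in the knockdown libraries, and 3 of the 6 tested, *Cdh15*, *Ncam1* and *Des*, were called lower. The satellite cell marker *Pax7* was at 0, and 6 of 8 myotube markers were at 0 in every library, with a summed level of 5.09 to 11.5 CPM. Fewer cells of a type and less RNA per cell cannot be told apart in such libraries, and the part of the lower markers in the results on the SR genes was not tested.

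The SR and Tra2 genes had nearly the same level in knockdown and scrambled myoblasts. Of the 10 genes, 8 had a positive and 2 a negative log2 fold change, none over 0.17 in size, and their median was 0.06 (all genes tested, -0.00). The median size of the change was 0.075 among the 10 genes and 0.266 among all genes tested, and 32.9% of all genes had a change no larger than the largest of the 10. None of the 10 was called (adjusted p under 0.05, log2 fold change over 0.5 in size and mean normalized count over 10), where 5.55% of all genes were called (481 of 8670; 194 without knockdown 1). At an unadjusted p under 0.05 there was also none of the 10 in edgeR, against 21.8% of all genes. None was under 0.05 in either DESeq2 fit, for which the share over all genes was not computed. The lowest adjusted p of the 10 was 0.559 (edgeR).

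The intervals show how large a change these 4 libraries leave room for. The 95% interval of the log2 fold change lay within -0.5 to 0.5 for 7 of the 10 genes, against 14.8% of all genes tested. The genes were also read more deeply than most, with a median of 322 normalized counts against 52.8 over all genes, and the interval reached a median of 0.302 to either side of the estimate (0.502 over all genes). Across the 10 genes the bounds ran from -0.53 to 0.64, which are folds of 0.69 and 1.56, and both outer bounds belong to *Srsf2*, the gene with the fewest reads.

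**Figure D1:**
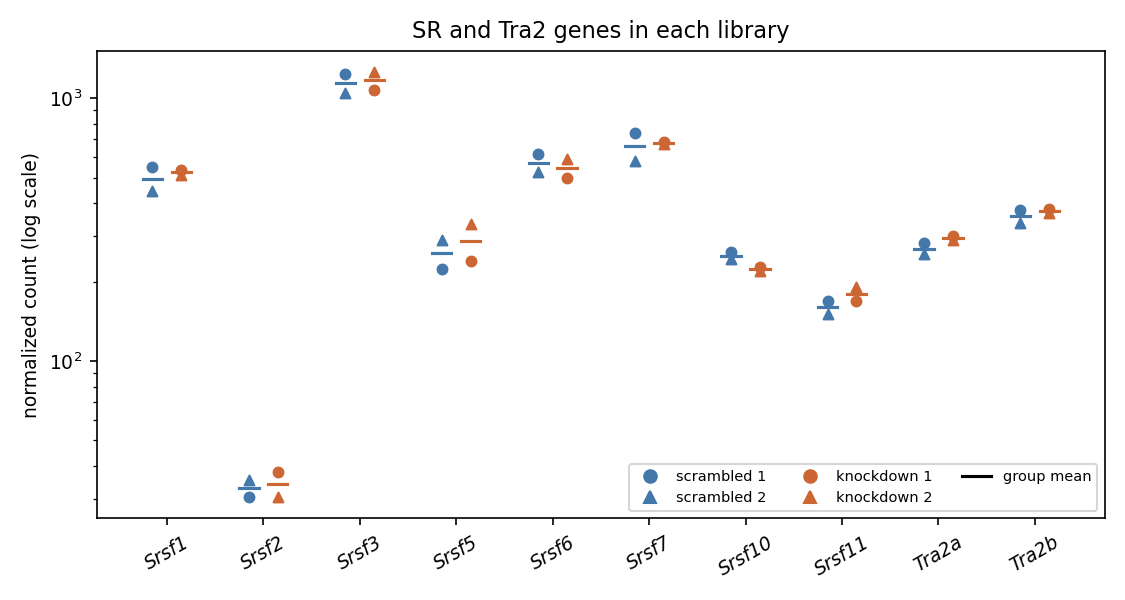
Normalized counts (vertical, log scale) of the 10 SR and Tra2 genes in scrambled 1 and 2 (blue) and knockdown 1 and 2 (orange); circles are batch 1, triangles batch 2 and bars the group means. The groups overlap in 7 genes, and in *Srsf10*, *Srsf11* and *Tra2a* they do not.

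**Figure D2:**
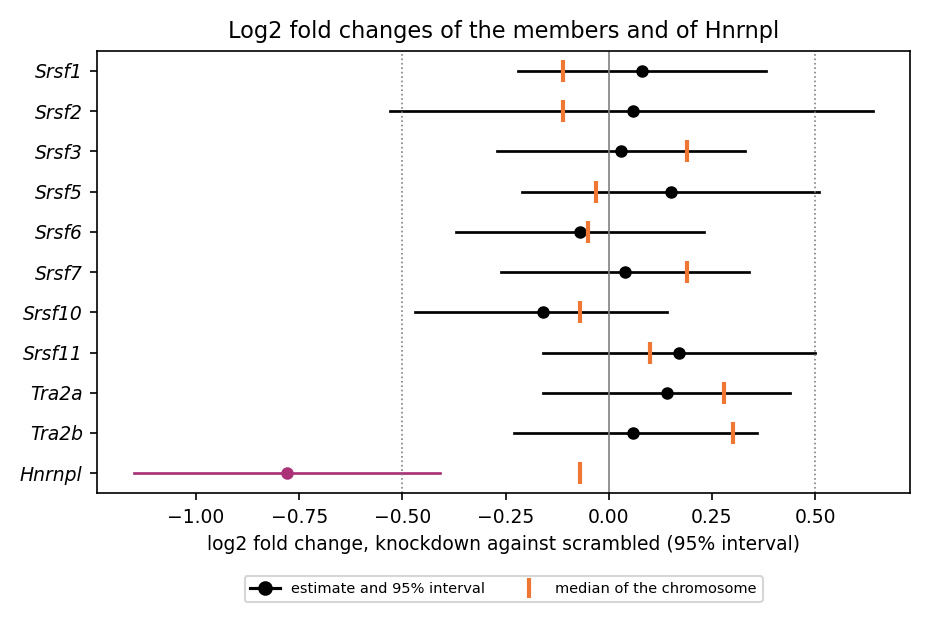
Log2 fold change with its 95% interval (edgeR) for the 10 genes and for *Hnrnpl*; dotted lines mark -0.5 and 0.5, and orange ticks the median log2 fold change of all tested genes on the same chromosome. All 10 intervals include 0, and that of *Hnrnpl*, from -1.15 to -0.41, does not.

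*Srsf1* (ENSMUSG00000018379.18, chr11:87938129-87944581) encodes the archetypal SR protein, which acts in constitutive and alternative splicing and also in export and translation. It had 547 and 443 normalized counts in the scrambled and 534 and 511 in the knockdown libraries. Both knockdown values fell between the scrambled ones. The log2 fold change was 0.08 (SE 0.14, 95% interval -0.22 to 0.38, adjusted p = 0.792, edgeR).

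*Srsf2* (ENSMUSG00000034120.19, chr11:116740723-116744518) encodes an SR protein that stays in the nucleus. Its deposited counts were 29 and 42 in the scrambled and 38 and 26 in the knockdown libraries, or 30.4, 35.3, 37.9 and 30.4 normalized counts. The groups spanned nearly the same values. The log2 fold change was 0.06 (SE 0.28, 95% interval -0.53 to 0.64, adjusted p = 0.936, edgeR), so that the interval of the fold ran from 0.69 to 1.56. Of the canonical *Srsf2* transcript, 82.1% is shared with exons of *Mettl23* and *Mfsd11* on the opposite strand, including the last 200 bases at the 3′ end, where direct RNA reads start. The strand setting of the counting is not given in the sources used here, and without strand such reads cannot be told apart. Reads that fall on more than 1 gene were left uncounted as ambiguous and made up 16 to 16.5% of each library. Their part in the low count of *Srsf2* was not tested.

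*Srsf3* (ENSMUSG00000071172.14, chr17:29251321-29262347) and *Srsf7* (ENSMUSG00000024097.12, chr17:80507501-80514879) encode small shuttling SR proteins that also act in mRNA export and in the choice of the poly(A) site. *Srsf3* had 1240 and 1050 normalized counts in the scrambled and 1080 and 1260 in the knockdown libraries. *Srsf7* had 736 and 580 in the scrambled and 684 and 669 in the knockdown libraries. The knockdown values of *Srsf7* lay inside the scrambled range, and those of *Srsf3* spanned nearly the same range as the scrambled ones. The log2 fold changes were 0.03 for *Srsf3* (SE 0.14, 95% interval -0.27 to 0.33, adjusted p = 0.921, edgeR) and 0.04 for *Srsf7* (SE 0.14, 95% interval -0.26 to 0.34, adjusted p = 0.904). The ratio of *Srsf3* to *Srsf7* normalized counts was 1.69 and 1.81 in the scrambled and 1.59 and 1.89 in the knockdown libraries.

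*Srsf5* (ENSMUSG00000021134.18, chr12:80986436-80997630) and *Srsf6* (ENSMUSG00000016921.15, chr2:162773299-162780234) encode SR proteins with a pair of RNA recognition motifs. *Srsf5* had 225 and 289 normalized counts in the scrambled and 241 and 332 in the knockdown libraries. In both groups the library of batch 2 was the higher one. *Srsf6* had 616 and 524 in the scrambled and 498 and 588 in the knockdown libraries, and here the order of the batches differed between the groups. The log2 fold changes were 0.15 for *Srsf5* (SE 0.17, 95% interval -0.21 to 0.51, adjusted p = 0.665, edgeR) and -0.07 for *Srsf6* (SE 0.14, 95% interval -0.37 to 0.23, adjusted p = 0.827).

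*Srsf10* (ENSMUSG00000028676.18, chr4:135583043-135602548) encodes an SR protein that represses splicing when dephosphorylated, as in heat shock and mitosis. Its values were 260 and 244 normalized counts in the scrambled and 229 and 220 in the knockdown libraries. Both knockdown libraries lay below both scrambled ones. The log2 fold change was -0.16 (SE 0.15, 95% interval -0.47 to 0.14, adjusted p = 0.559, edgeR), the largest negative value of the 10 genes. *Srsf11* (ENSMUSG00000055436.19, chr3:157716110-157742310) encodes an SR protein known for its part in the inclusion of neuronal microexons. It had 170 and 151 normalized counts in the scrambled and 170 and 191 in the knockdown libraries, where the higher scrambled and the lower knockdown library were nearly equal. Its log2 fold change was 0.17 (SE 0.16, 95% interval -0.16 to 0.50, adjusted p = 0.575, edgeR).

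*Tra2a* (ENSMUSG00000029817.12, chr6:49220793-49241017) and *Tra2b* (ENSMUSG00000022858.17, chr16:22063266-22084824) encode a pair of paralogous proteins that bind the same kind of exonic sequence. *Tra2a* had 281 and 255 normalized counts in the scrambled and 299 and 290 in the knockdown libraries, without overlap. *Tra2b* had 375 and 337 in the scrambled and 379 and 365 in the knockdown libraries, with overlap. The log2 fold changes were 0.14 for *Tra2a* (SE 0.14, 95% interval -0.16 to 0.44, adjusted p = 0.623, edgeR) and 0.06 for *Tra2b* (SE 0.14, 95% interval -0.23 to 0.36, adjusted p = 0.84). The ratio of *Tra2a* to *Tra2b* was 0.749 and 0.756 in the scrambled and 0.789 and 0.795 in the knockdown libraries, a mean log2 ratio of -0.41 and -0.34. With 2 libraries per group an exact permutation test of such a single value cannot give a two-sided p below 0.333.

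In 3 of the 10 genes the groups did not overlap in normalized counts, against 52.4% of all genes tested. These were *Srsf10*, which was lower, and *Srsf11* and *Tra2a*, which were higher, and none of them passed the test.

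**Figure D3:**
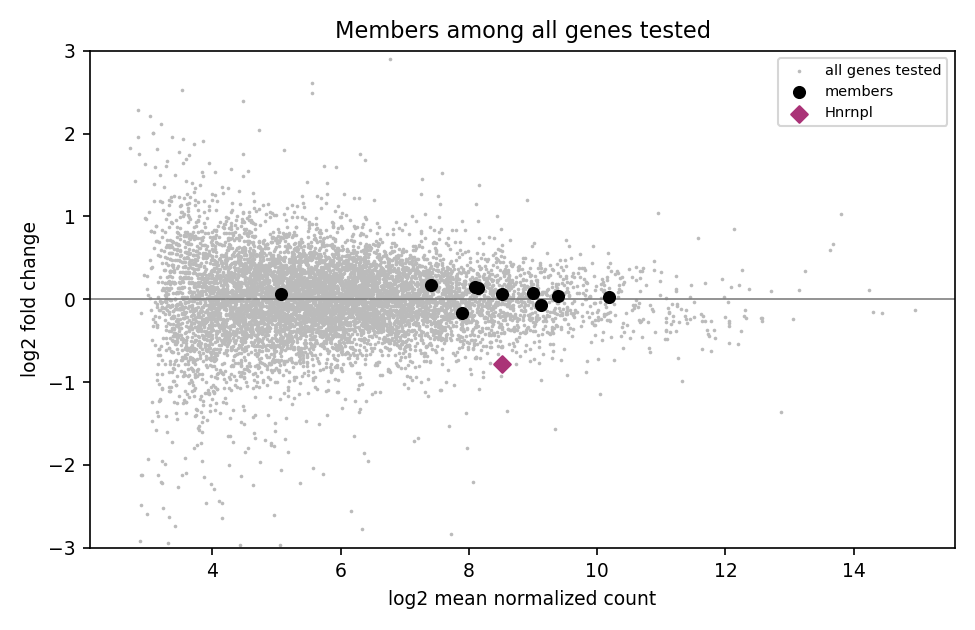
Log2 fold change (vertical) against the log2 mean normalized count (horizontal) of the 8670 genes tested (grey), the 10 SR and Tra2 genes (black) and *Hnrnpl* (diamond); 15 genes lie outside the vertical range of -3 to 3. The 10 genes sit between -0.16 and 0.17.

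Within batch 1 the log2 ratio of knockdown to scrambled was between -0.31 (*Srsf6*) and 0.31 (*Srsf2*), and within batch 2 between -0.21 (*Srsf2*) and 0.33 (*Srsf11*). The sign was the same in both batches for 5 of the 10 genes, *Srsf5*, *Srsf10*, *Srsf11*, *Tra2a* and *Tra2b*, against 65% of all genes tested. *Srsf10* was at -0.18 and -0.15 and *Tra2a* at 0.09 and 0.18. *Srsf2* and *Srsf6* changed sign between the batches, with 0.31 and -0.21 for *Srsf2* and -0.31 and 0.17 for *Srsf6*. *Srsf1*, *Srsf3* and *Srsf7* were also negative in batch 1 (-0.03, -0.20 and -0.10) and positive in batch 2 (0.20, 0.26 and 0.20).

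**Figure D4:**
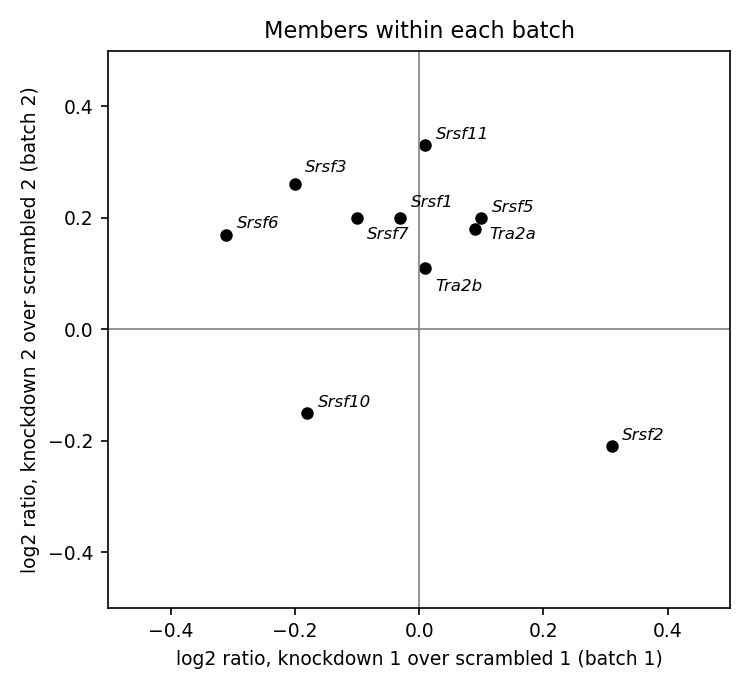
Log2 ratio of knockdown to scrambled normalized counts within batch 1 (horizontal) and batch 2 (vertical) for the 10 SR and Tra2 genes, 1 point per gene. *Srsf1*, *Srsf3*, *Srsf6* and *Srsf7* lie in the upper left and *Srsf2* in the lower right, and 8 genes are positive in batch 2.

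Libraries of the same group differed by log2 ratios of up to 0.46, more than the largest difference between the groups. In 8 of the 10 genes scrambled 2 was below scrambled 1, by log2 ratios from -0.09 (*Srsf10*) to -0.34 (*Srsf7*), and *Srsf2* (0.22) and *Srsf5* (0.36) were above. Between the knockdown libraries the log2 ratio of library 2 to 1 ran from -0.32 (*Srsf2*) to 0.46 (*Srsf5*). The 10 genes together held 0.308% and 0.277% of the counted reads in the scrambled and 0.304% and 0.31% in the knockdown libraries, so that scrambled 2 was the lowest and the other 3 libraries were close. Between passages, the mean chi-square of the 10 genes came to 5.36 (scrambled) and 2.72 (knockdown), beside 2.4 and 2.59 over all genes with at least 10 reads in the pair of libraries, a measure that grows with depth when replicates differ by more than counting error. Without scrambled 2, 4 of the 10 log2 fold changes were positive and 6 negative, and none had an unadjusted p under 0.05.

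Several of the genes lie on chromosomes where the tested genes as a whole were shifted. The median log2 fold change was 0.30 on chromosome 16 (289 genes, with *Tra2b*), 0.28 on chromosome 6 (404 genes, with *Tra2a*) and 0.19 on chromosome 17 (414 genes, with *Srsf3* and *Srsf7*). It was 0.10 on chromosome 3 (*Srsf11*), -0.03 on 12 (*Srsf5*), -0.05 on 2 (*Srsf6*), -0.07 on 4 (*Srsf10*) and -0.11 on 11 (*Srsf1* and *Srsf2*). *Tra2b*, *Tra2a*, *Srsf3* and *Srsf7* thus had positive log2 fold changes that were smaller than the median of their chromosome. With the chromosome medians taken out they turned negative, to -0.24 for *Tra2b* (adjusted p = 0.482, edgeR), -0.14 for *Tra2a* (adjusted p = 0.733), -0.16 for *Srsf3* (adjusted p = 0.682) and -0.15 for *Srsf7* (adjusted p = 0.702), so that 4 of the 10 genes were then positive and 6 negative. The other genes kept their sign, with *Srsf11* at 0.07, *Srsf10* at -0.09 and *Srsf6* at -0.02. *Srsf1* was then at 0.19, *Srsf2* at 0.16 and *Srsf5* at 0.18. What shifted these chromosomes was not tested.

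Some of the genes share sequence with other loci. Processed pseudogenes with at least 90% identity to the canonical transcript over at least 300 bases were found for 5 of the 10 genes: 5 for *Srsf3*, 4 for *Tra2b*, 2 for *Srsf10* and 1 each for *Srsf5* and *Srsf7*. They cover 14.4 to 44.7% of the transcript at 92.4 to 99.6% identity. The most reads on any of these 13 copies in a library were 13, on *Srsf3-ps*, which had 13, 2, 2 and 4 reads in scrambled 1, scrambled 2, knockdown 1 and knockdown 2, beside 1187, 1251, 1089 and 1082 on *Srsf3*. Reads of low mapping quality, 22.7 to 23.8% of each library, were left uncounted, and the share of them from these genes was not tested. Besides *Srsf2*, exons of other genes on the opposite strand overlap 22.7% of the canonical transcript in *Srsf5*, 13.4% in *Srsf1*, 8.87% in *Srsf3*, 5.79% in *Srsf10*, 0.541% in *Srsf11* and none of it in *Srsf6*, *Srsf7*, *Tra2a* and *Tra2b*.

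Since hnRNP L binds CA repeats, the genes were searched for CACACACA on the strand of the gene, with overlapping matches joined into 1 run. A run also takes in a neighbouring A or C that continues the alternation, as in *Srsf6*. Such a run was present in 6 of the 10 genes and in 78.9% of the genes tested that had a position (8662). The density had a median of 0.0479 runs per kb in the 10 genes and 0.124 in all. In the first 3 kb only *Srsf11* had runs (2), against 23.5% of the 8081 tested genes that are at least that long. *Srsf1*, *Srsf2*, *Srsf3* and *Srsf5* had none anywhere. The runs of *Srsf6* and *Tra2a* are shown in 30 bases of the genome on the strand of the gene, with the run in capitals, as examples from an untranslated exon part and from an intron.
Srsf6: atatatACACACACACACACACAtgcatac
Tra2a: gcaaaacaccCACACACACAaactacaaaa

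The run of *Srsf6* is 17 bases long and lies at chr2:162779874-162779890, in the untranslated part of the canonical transcript. That of *Tra2a* is 10 bases long, at chr6:49235810-49235819, in an intron. The longest run of the 10 genes had 58 bases, in an intron of *Srsf10* at chr4:135597515-135597572. A run is a match of letters and no binding was measured.

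Genes that work with SR proteins were followed in the same fit, as 34 genes in 3 lists, of which 29 were tested. None of the 29 was called (5.55% of all genes), 19 were higher and 10 lower, and 7 had an unadjusted p under 0.05, 6 higher and 1 lower (edgeR; in either DESeq2 fit none had). That is 7 of 29, beside the 21.8% of all genes in the same edgeR fit. The count was 4 with the chromosome medians taken out, and 6 or 7 in the other edgeR alternatives that kept every library. For the alternatives, DESeq2 included, the share of all genes at an unadjusted p under 0.05 was not computed. The median log2 fold change was 0.10. Of the other SR family genes, *Srsf9* had 261 and 313 counts in the scrambled and 283 and 284 in the knockdown libraries. Its log2 fold change was 0.19 (SE 0.15, adjusted p = 0.484, edgeR), and -0.04 with the chromosome medians taken out. Without knockdown 1 it was 0.31 and without knockdown 2 it was 0.07. *Srsf4* and *Srsf12* had no read in any library. Exons of *Gm12992* on the opposite strand overlap 65.3% of the canonical *Srsf4* transcript and its last 200 bases, and exons of *Gatc* overlap 71.7% of that of *Srsf9*, its last 200 bases included, whereas *Srsf12* shares none. The part of these overlaps in the counts was not tested.

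The kinases that phosphorylate the arginine-serine tail lie in the second list, with the phosphatase *Ppm1g* and the import receptor *Tnpo3*. Of its 12 genes 9 were tested, 7 higher and 2 lower, with a median log2 fold change of 0.24. *Clk4*, a nuclear kinase of SR proteins, had 25 and 28 counts in the scrambled and 44 and 34 in the knockdown libraries. Its log2 fold change was 0.76 (SE 0.28, 95% interval 0.17 to 1.35), the largest of the 29, with an unadjusted p of 0.0147 that did not hold after adjustment (adjusted p = 0.119, edgeR). Within the batches it was 0.73 and 0.74. *Clk1*, its close relative, had 68.1 and 68.1 normalized counts in the scrambled and 64.8 and 67.8 in the knockdown libraries, a log2 fold change of -0.04. *Prpf4b* (0.45, adjusted p = 0.2) and *Cdk11b* (0.44, adjusted p = 0.219) had an unadjusted p under 0.05 as well. *Prpf4b* was at 0.22 (adjusted p = 0.685) with the chromosome medians taken out, at 0.29 without knockdown 2 and at 0.30 without scrambled 1. *Ppm1g*, with the most reads of the list, was at 0.24 (adjusted p = 0.354). *Srpk3* had no read, *Clk3* at most 2 and *Tnpo3* at most 7 in a library. Exons on the opposite strand overlap 54.3% of the canonical transcript of *Srpk3* (*Idh3g*) and 29.3% of that of *Clk3* (*Edc3*), in both with the last 200 bases.

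All 19 SR-related genes were tested, 11 higher and 8 lower, with a median log2 fold change of 0.06. *Son*, a large scaffold protein of nuclear speckles, had 98.4 and 95.9 normalized counts in the scrambled and 134 and 136 in the knockdown libraries, a log2 fold change of 0.47 (SE 0.17, adjusted p = 0.0998, edgeR). It lies on chromosome 16, and with the chromosome medians taken out the value was 0.17 (adjusted p = 0.709). *Srrm2*, another speckle scaffold, was at 0.39 (adjusted p = 0.184) and *Thrap3* at 0.43 (adjusted p = 0.213). With the chromosome medians taken out *Srrm2* was at 0.19 (adjusted p = 0.679) and *Thrap3* at 0.50 (adjusted p = 0.222). Without scrambled 1 *Srrm2* was at 0.24 and *Thrap3* at 0.25, without knockdown 2 they were at 0.29 and 0.27, and without scrambled 2 *Thrap3* was at 0.65. *Luc7l3*, a relative of a U1 snRNP component, was at -0.38 (adjusted p = 0.186), the only lower gene of the 29 with an unadjusted p under 0.05. *Rbm39*, with the most reads of the list, had 438 and 368 normalized counts in the scrambled and 348 and 328 in the knockdown libraries, a log2 fold change of -0.25 (adjusted p = 0.33).

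**Figure D5:**
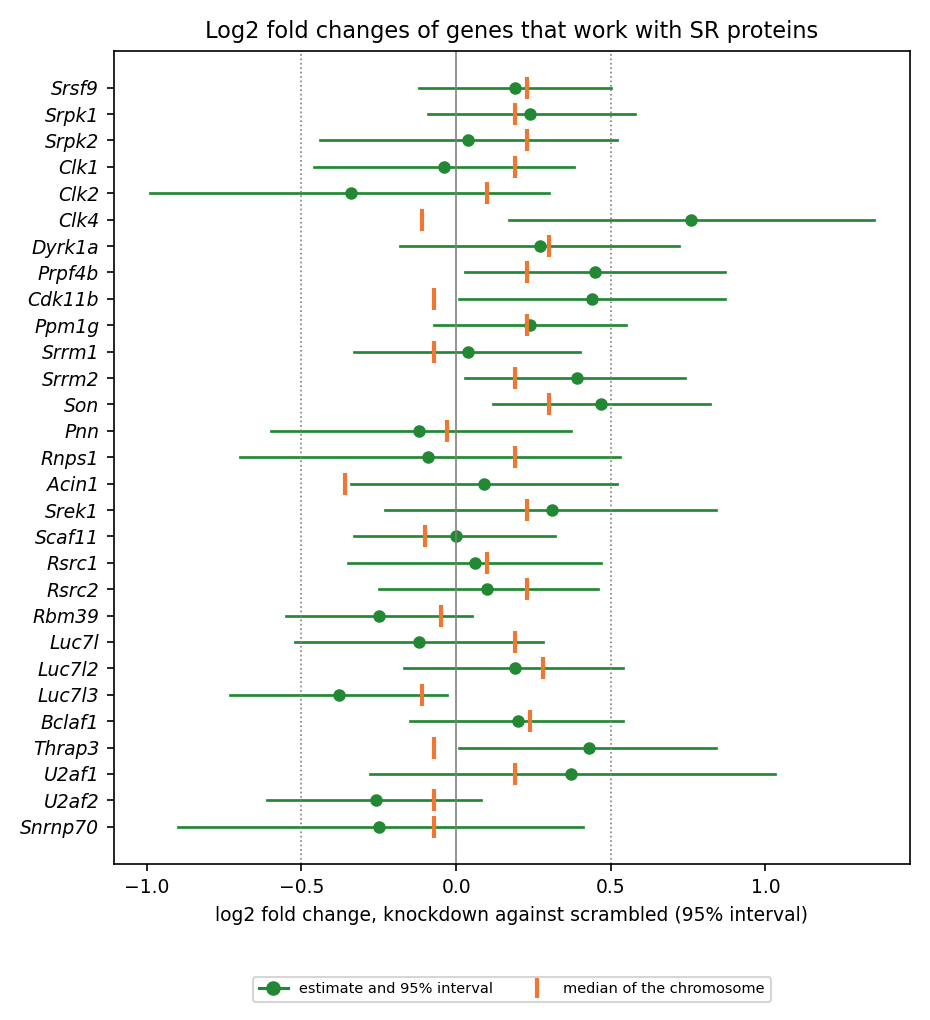
Log2 fold change with its 95% interval (edgeR) for the 29 tested genes that work with SR proteins; dotted lines mark -0.5 and 0.5, and orange ticks the median of the chromosome. *Clk4* is at 0.76 and *Luc7l3* at -0.38, and no gene was called.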

How the data were processed

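RNA of 4 C2C12 libraries was sequenced with the direct RNA kit of Oxford Nanopore. Per the labels and the study's methods, the authors used minimap2 2.17 for splice-aware mapping to GRCm39, and HTSeq 0.9.1 for the counts per gene. The deposited values are raw counts with no normalization, and ambiguous reads and reads of low mapping quality stand outside the genes. The annotation release and strand setting are not given in the sources used here. Of 56748 IDs, 56017 were matched to GENCODE vM39, version dropped, which also gave positions and transcripts.

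Knockdown was compared with scrambled on the deposited counts with edgeR 4.0.16 (R 4.3.3), using TMM, filterByExpr and the quasi-likelihood test with group as the only term, and Benjamini-Hochberg adjustment over the 8670 genes tested. All edgeR and DESeq2 p-values are Benjamini-Hochberg adjusted unless called unadjusted. For an alternative, the adjustment ran over the genes tested in it, such as 8507 (local) and 9074 (parametric) in DESeq2. Normalized counts are counts divided by the TMM-adjusted library size, times the mean library size. Standard errors and 95% intervals were computed from the test's p and degrees of freedom. Within-batch ratios had 0.5 added. The test was tried on simulated data. DESeq2 1.42.0, other normalizations and filters, a replicate block, removal of chromosome medians and leaving out each library were alternatives. The labels give the replicate number as the batch, which pairs the libraries. Deviations from the group means had a correlation of -0.0186 between same-numbered libraries over 7008 genes.

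The 10 genes and the lists were chosen with earlier results of these data known. All 10 are named. Of the related lists, genes with an unadjusted p under 0.05 and the gene with the most counts of each list are named, and *Clk1*, *Clk3*, *Tnpo3* and genes at 0 were added after their values were seen.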

Additional observations from a re-analysis of the deposited data

How the results depend on the processing

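Under 15 alternatives none of the 10 SR and Tra2 genes and none of the 34 related genes was called, and none of the 10 had an unadjusted p under 0.05. Of the 150 log2 fold changes of the 10 genes, 135 kept their direction and 15 reversed. With the chromosome medians removed the reversed values were -0.16 for *Srsf3*, -0.15 for *Srsf7*, -0.14 for *Tra2a* and -0.24 for *Tra2b*, and, of the related genes named in the text whose alternatives were computed, -0.04 for *Srsf9*; the cause was not tested. Leaving out each library in turn, the log2 fold changes that reversed ran from -0.07 to 0.24 for *Srsf1* and -0.12 to 0.19 for *Srsf2*. Also reversing, *Srsf3* ran from -0.09 to 0.16, *Srsf5* from -0.10 to 0.36 and *Srsf6* from -0.19 to 0.05. So did *Srsf7*, from -0.13 to 0.22, and *Tra2b*, from -0.02 to 0.14. Those that kept their sign ran from -0.22 to -0.12 for *Srsf10*, 0.08 to 0.25 for *Srsf11* and 0.06 to 0.21 for *Tra2a*. The median of the 10 genes ran from -0.05 to 0.15, and with the chromosome medians removed it was -0.06. *Hnrnpl* was at -0.78 (adjusted p = 0.0567) in DESeq2's Wald test with a parametric fit. Leaving out each library it ran from -1.03 to -0.48. With the replicate block, 484 genes were called, none of them among the 10, and the median log2 fold change of the 10 was 0.06. Over all genes, 481 were called in edgeR, 228 in DESeq2 with a local fit, 115 with a parametric fit, 612 without a filter on low counts (16728 genes tested), 285 with the chromosome medians removed and 194 without knockdown 1. With 2 libraries per group and 26 to 42 counts, the depth limits *Srsf2* most.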
